A study of Mus musculus with 15 samples.

Results

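Bone macrophages of mice lacking the guidance receptor ROBO4 or the lipoprotein receptor VLDLR were compared, as 1 combined knockout group, with wild-type (WT) macrophages, and genes were kept that moved the same way in each knockout. The 10 knockout libraries were 5 from ROBO4-/- mice (ROBO4_KO) and 5 from VLDLR-/- mice (VLDLR_KO), and they were set against 5 WT libraries, so all 15 libraries of the series entered. Every library came from cells grown for 14 days with 20 ng/ml M-CSF, and the labels gave the same strain, C57BL6J, for all 3 genotypes. The labels gave no age, and did not say whether replicates were separate mice or cultures, so p-values measure the spread between these libraries only. Sample codes were of 2 kinds, with their digit either ahead of the letter B or behind it, a difference that the labels do not explain. WT replicates 3 to 5 and replicates 1 and 2 of each knockout had the digit before B, WT replicates 1 and 2 and replicates 3 to 5 of each knockout had it after B, and this code form was a covariate in the model. Of 11668 tested genes, 81 (0.694%) passed in the combined comparison (edgeR quasi-likelihood test, Benjamini-Hochberg adjusted p under 0.05; such genes are called below), and all 81 had the same sign in each knockout.

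M-CSF signals through its receptor, CSF1R, to keep macrophages alive and to mature them from bone precursors. ROBO4 is a receptor of the Roundabout family best known from blood vessel endothelium, and VLDLR binds lipoproteins carrying apolipoprotein E and also takes part in Reelin signalling. Macrophages answer microbial or inflammatory signals with a quick wave of immediate-early genes, with cytokines, and with genes induced by interferon.

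Libraries held 18132866 to 19005966 estimated counts. The macrophage markers were detected in every library, at uneven levels. Lyz2 had 6205 to 9251 CPM in ROBO4_KO, 13170 to 26410 CPM in VLDLR_KO and 4986 to 10860 CPM in WT. Fcgr1 had 37.71 to 81.7 CPM in ROBO4_KO, 31.12 to 56.96 CPM in VLDLR_KO and 71.9 to 107.3 CPM in WT. Itgam had 422.8 to 915.9 CPM in ROBO4_KO, 133.4 to 702.7 CPM in VLDLR_KO and 379 to 914.8 CPM in WT. Adgre1, which encodes F4/80, had 1116 to 1168 CPM in ROBO4_KO, 743.6 to 1052 CPM in VLDLR_KO and 1043 to 1119 CPM in WT, while Cd3e, of T cells, had 2 counts over all libraries. Markers of other cells were not all near 0. Ctsk, of osteoclasts, had 8.365 to 118.5 CPM in ROBO4_KO, 4.565 to 159.9 CPM in VLDLR_KO and 10.23 to 55.7 CPM in WT. The T and NK cell list summed to 12.8 to 25.6 CPM in ROBO4_KO, 16.5 to 34.9 CPM in VLDLR_KO and 22.8 to 55.2 CPM in WT, and Col1a1, of fibroblasts, had 1.44 to 34.1 CPM in ROBO4_KO, 0 to 8.56 CPM in VLDLR_KO and 9.67 to 51.7 CPM in WT. Their part in the results was not tested. Robo4 itself was nearly silent, with 0 counts in ROBO4_KO, 1 in VLDLR_KO and 6 in WT. Vldlr had 26 counts in VLDLR_KO (0.0529 to 0.502 CPM), 67 in ROBO4_KO and 74 in WT (0.28 to 1.87 CPM), and its log2 fold change in VLDLR_KO against WT was -1.07 (SE 0.71, adjusted p = 0.327). Both targeted genes thus checked the labels only weakly. The Y-linked genes Ddx3y, Eif2s3y, Kdm5d and Uty together had at most 3 counts in VLDLR_KO replicates 3 and 4 and WT replicate 3, against 2083 or more in each other library. In bulk RNA, fewer cells of a type and less RNA per cell cannot be told apart.

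The 81 genes split into 38 that were higher (0.326% of those tested) and 43 that were lower (0.369%) in the knockouts, and the median over all tested genes was 0.01 on the log2 scale. The change was at least 2-fold for 51 of them, 28 higher and 23 lower. For 40 of the 81, all 10 knockout libraries lay on 1 side of all 5 WT libraries, as did 64 of all tested genes (0.549%). In ROBO4_KO against WT 75 genes were called (0.643%), 40 higher (0.343%) and 35 lower (0.3%), and 46 of the 81 were among them. In VLDLR_KO against WT 1957 genes were called (16.8%), 903 higher (7.74%) and 1054 lower (9.03%), and all 81 were among them. These comparisons use the same WT and knockout libraries as the combined one, so their agreement with it is not separate evidence. Called in the combined comparison and in each knockout were 46 genes (0.394%), 29 higher and 17 lower.

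How many genes passed depended on the libraries and on the model. Without WT replicate 1, 40 genes were called, and without WT replicate 2, 37 were. With both left out, an alternative chosen after the data were seen, 26 were called, 22 of them among the 81. Without the 3 libraries that lacked Y-linked counts, also chosen after the data were seen, 31 were called, all among the 81. Without the code form covariate 46 were called, 44 of them among the 81. Within 1 code form, 7 genes were called with the digit before B (0.0589% of 11894 tested) and 119 with the digit after B (1.01% of 11744 tested). In the other direction, DESeq2 called 202 genes, 197 with the same sign in each knockout, and a model with 1 coefficient per genotype called 610, 507 with the same sign. Leaving out any 1 library in turn left 36 of the 81 called throughout, 23 higher and 13 lower, and 16 of these 36, namely 12 higher and 4 lower, were also called under every other alternative tried except the fits within 1 code form. The 12 were Cadm1, Aph1b, Mcam, Nxpe4, Nnt, Wdfy1, Dynlt1b and 5 genes with predicted names (Gm40498, Gm41035, Gm41885, Gm42031 and Gm43828), and the 4 were Cox7a2, Tmem254b, Tpm1 and Gm16867. Cadm1, Nnt, Wdfy1, Gm41885, Gm43828 and Gm16867 were also called within each code form.

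**Figure D1:**
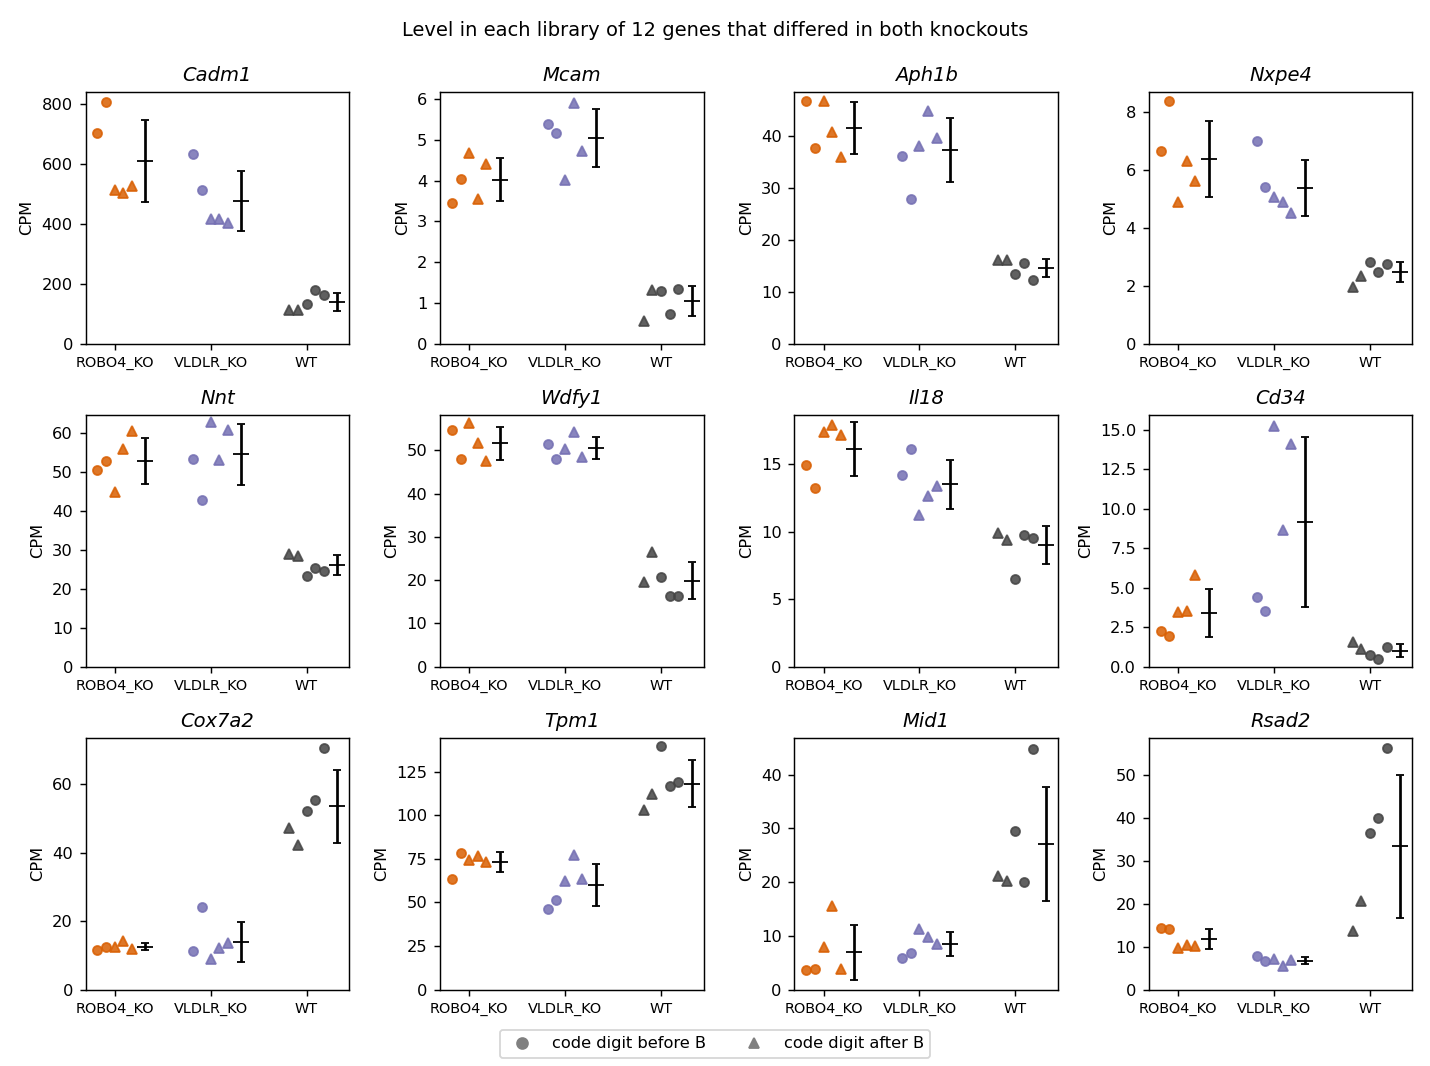
Level of 12 of the called genes in every library, in CPM, with ROBO4_KO and VLDLR_KO to the left of WT; circles are libraries with the code digit before B, triangles those with it after B, and the black bar is the mean ± SD of 5 libraries. In each panel all 10 knockout libraries lie on 1 side of the 5 WT libraries except for Rsad2, where WT replicate 1 (13.7 CPM) lies below ROBO4_KO replicates 1 and 2.

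Cadm1 (Entrez 54725, chromosome 9, 47530170 to 47862280) encodes an adhesion molecule of the immunoglobulin superfamily. Its levels were 703.5, 805.9, 511.3, 504 and 527.4 CPM in ROBO4_KO replicates 1 to 5, 633.7, 514.5, 417, 416 and 401.5 CPM in VLDLR_KO, and 114.3, 111.4, 131.3, 179 and 163.9 CPM in WT. The lowest knockout library was thus above the highest WT library. The combined log2 fold change was 2.06 (SE 0.12, adjusted p = 1.71e-07), a 4.16-fold difference, with 2.22 in ROBO4_KO and 1.87 in VLDLR_KO, and it was 2.07 with the digit before B and 2.04 with it after B. The difference of VLDLR_KO from ROBO4_KO, -0.35, passed as well (adjusted p = 0.0123).

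Nnt (chromosome 13, 119335527 to 119429801) encodes the mitochondrial transhydrogenase that makes NADPH, and is known to carry a deletion in the C57BL/6J strain. It had 50.56, 52.96, 44.82, 56.08 and 60.62 CPM in ROBO4_KO and 53.31, 42.93, 62.84, 53.04 and 60.96 CPM in VLDLR_KO, against 28.96, 28.42, 23.26, 25.5 and 24.52 CPM in WT. The groups did not overlap, and the level in the knockouts was 2.01-fold that in WT (SE 0.09 on the log2 scale, adjusted p = 8.16e-06; log2 fold change 0.99 in ROBO4_KO and 1.02 in VLDLR_KO). Over all settings tried its log2 fold change stayed between 0.97 and 1.04. Of 22 tested genes of the antioxidant and NADPH list, Nnt and Gclm, the regulatory subunit of the enzyme that starts glutathione synthesis, were the 2 called, both higher, and the median of the list was 0.08. Gclm had 46.6 to 139.9 CPM in the knockouts and 34.19 to 61.44 CPM in WT, with overlap (log2 fold change 0.63, SE 0.13, adjusted p = 0.0382), and its call was lost without any 1 of 10 libraries.

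Wdfy1, named here after its values were seen, encodes an endosomal adaptor of Toll-like receptor signalling. It averaged 51.7 ± 3.86 CPM in ROBO4_KO and 50.6 ± 2.5 CPM in VLDLR_KO, against 19.9 ± 4.24 CPM in WT (SD, n = 5 each). The log2 fold change was 1.34 (SE 0.10, adjusted p = 2.61e-06), and no knockout library was below 47.6 CPM while no WT library was above 26.6 CPM. Il18, on chromosome 9, encodes a cytokine of the interleukin-1 family and was also named after its values were seen. It had 11.2 to 17.9 CPM in the knockouts (median 14.6) and 6.5 to 9.9 CPM in WT (median 9.54), again without overlap (log2 fold change 0.70, SE 0.14, adjusted p = 0.0237). Unlike that of Wdfy1, the call of Il18 was not kept in every leave-one-out fit. Within code forms Il18 was not called (adjusted p = 0.466 with the digit before B and 0.272 with it after B). Cd59a, an inhibitor of the complement membrane attack complex named on the same footing, had 20.5 to 40.5 CPM in the knockouts and 12.4 to 19.1 CPM in WT (log2 fold change 1.04, SE 0.15, adjusted p = 0.00269).

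Cd34, a sialomucin of blood progenitors and endothelium, was higher by 2.24 (SE 0.44, adjusted p = 0.0261) and differed between the knockouts. Its levels were 2.24, 1.92, 3.44, 3.54 and 5.84 CPM in ROBO4_KO, 4.4, 3.51, 15.2, 8.64 and 14.1 CPM in VLDLR_KO and 1.57, 1.14, 0.729, 0.476 and 1.23 CPM in WT. VLDLR_KO exceeded ROBO4_KO by 1.34 (adjusted p = 0.00268), and its 3 highest libraries had the digit after B. The combined call was lost without VLDLR_KO replicate 1 or without any of WT replicates 1 to 4 (adjusted p up to 0.149). Of the endothelial markers, Pecam1 and Cdh5 were at no more than 1.31 CPM in any library, whereas Kdr had 2.94 to 58.1 CPM in ROBO4_KO, 9.16 to 27.3 CPM in VLDLR_KO and 8.83 to 52.1 CPM in WT. The endothelium list summed to 150.7 to 277.6 CPM in ROBO4_KO, 129.2 to 263.2 CPM in VLDLR_KO and 175.4 to 305.6 CPM in WT, and its part in the change of Cd34 was not tested. Of the 10 genes of the endothelium list, which does not hold Cd34, only 4 were tested. None of the 4 was called in the combined comparison, and VLDLR_KO against WT called 1 lower. Camk2b, a subunit of a calcium and calmodulin dependent kinase, had 3.25 to 10.1 CPM in the knockouts and 0.572 to 3.31 CPM in WT (log2 fold change 2.17, SE 0.36, adjusted p = 0.00863), and the groups met only through WT replicate 2.

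Of the 81 genes, 17 carried predicted Gm or LOC names, and 16 of these were higher. That was 9.55% of the 178 tested genes with such names, against 64 of the 11490 other tested genes (0.557%), a grouping made after the values were seen and given without a test. Several varied together between libraries and so are not separate observations. In ROBO4_KO replicates 1 to 5, Gm40498 had 19.71, 31.12, 39.27, 58.16 and 99.22 CPM. Gm43828 had 22.91, 28.63, 41.55, 64.15 and 105 CPM there. Others, such as Gm3435 (9.75, 11.44, 9.164, 7.192 and 9.625 CPM), did not follow this order. The largest fold differences were among the genes with predicted names. Gm41885 (chromosome 19, 60925722 to 60933971) had 10.3, 10.4, 37, 32.5 and 55.5 CPM in ROBO4_KO and 10.4, 19, 69, 62.3 and 50.6 CPM in VLDLR_KO, against 0.447 and 0.4 CPM in WT replicates 1 and 2 and 0 in WT replicates 3 to 5. Its fitted log2 fold change was 7.41 (SE 0.42, adjusted p = 1.71e-07). Gm42031 (chromosome 8, 85125872 to 85132289), a long noncoding RNA in RefSeq, had 5588 counts over the knockout libraries and 0 in all WT libraries, which makes it at least 183-fold higher in the knockouts against a floor of 3 counts per WT library (adjusted p = 0.000169). Its level varied from 1.45 to 57 CPM among the knockouts. Gm43828, a pseudogene in RefSeq, had 22.9 to 105 CPM in the knockouts and 2.6 to 9.17 CPM in WT (log2 fold change 3.21, SE 0.24, adjusted p = 2.61e-06).

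Several of these predicted genes lie over others, and the strand used in counting is not given in the sources used here, so their reads cannot be told apart from those of their partners. Gm41885 overlaps Grk5, Gm42102 overlaps Paics and Ppat, and Gm39972 overlaps Cnbd2. Of these partners Cnbd2 was called in the same direction (1.37, adjusted p = 0.00567), whereas Grk5, Paics and Ppat were not called. In all, 24 of the 81 overlapped another gene of the deposited table, leaving aside partners of 500 kb or longer, a limit set after the overlaps were seen. Nnt, Wdfy1, Cox7a2 and Il18 were among them, and their tested partners Paip1, Mrpl44, Tmem30a and Bco2 were not called. Dynlt1b, a dynein light chain gene with near-identical copies on chromosome 17, rose by 1.91 (adjusted p = 1.14e-05). Its interval overlaps those of Tmem181a (0.58, adjusted p = 0.00935) and Dynlt1a (0.94, adjusted p = 0.0969), so the gene that gave the reads is uncertain. Tmem254b, which also belongs to a group of copies, averaged 14.9 ± 1.59 CPM in ROBO4_KO and 13.3 ± 3.14 CPM in VLDLR_KO, against 30.6 ± 0.937 CPM in WT (SD, n = 5 each). Its log2 fold change was -1.19 (SE 0.10, adjusted p = 1.14e-05). Gm16867, named after its values were seen, was at 0 to 0.265 CPM in the knockouts and 1.06 to 2.97 CPM in WT (log2 fold change -3.95, adjusted p = 8.56e-05), and it overlaps Entpd4 (-1.07, adjusted p = 0.292).

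**Figure D2:**
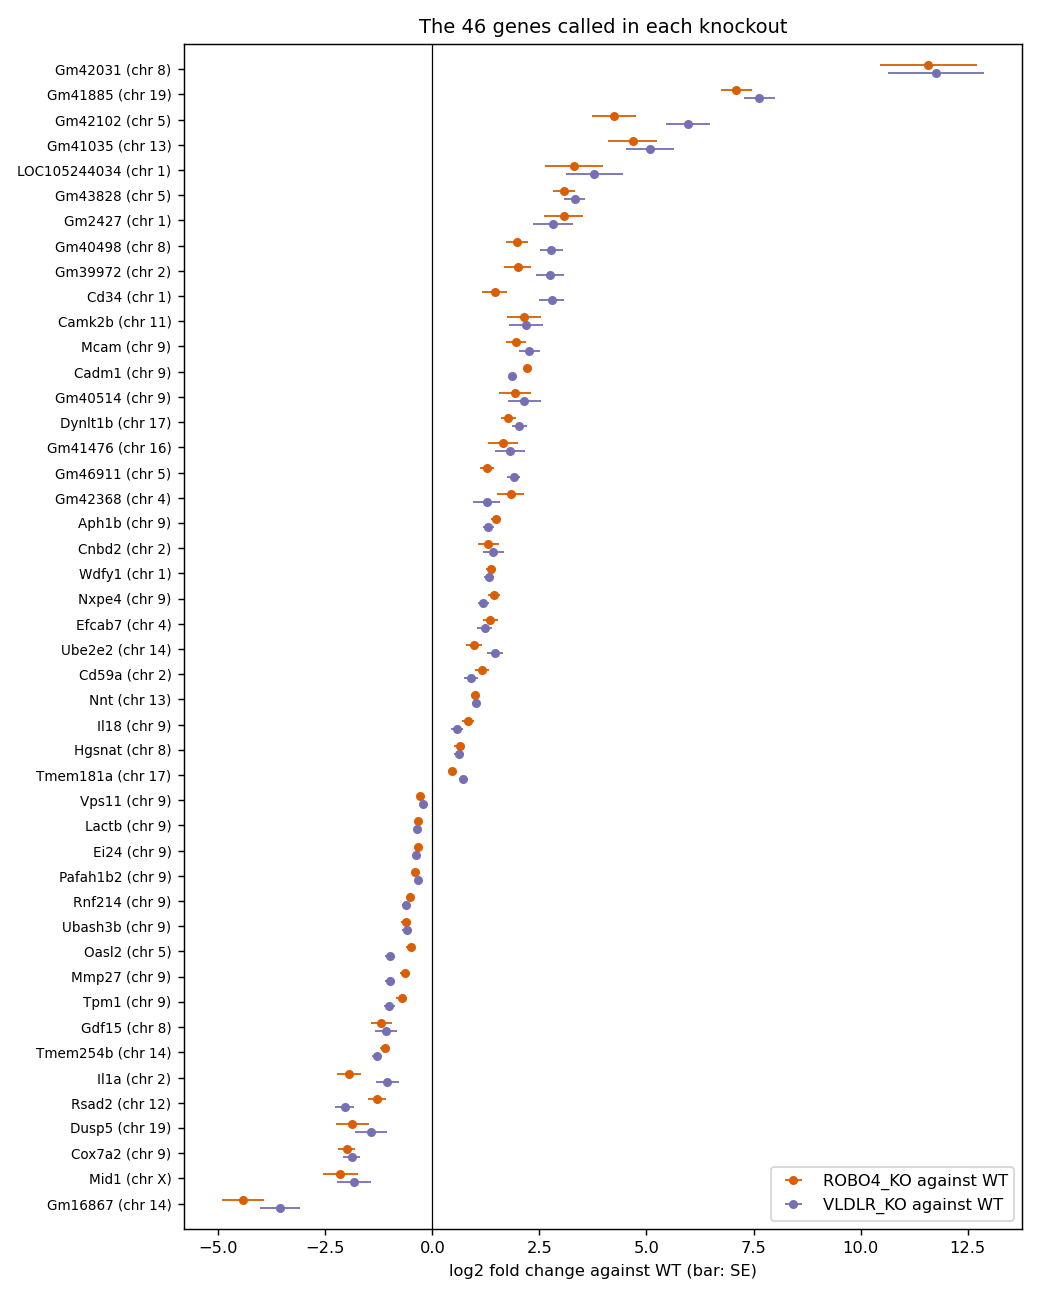
Log2 fold change against WT, with its SE as a bar, of the 46 genes called in the combined comparison and in each knockout, ordered by the combined value; ROBO4_KO is drawn above VLDLR_KO for each gene, and both share the WT libraries. The 29 higher genes run up to Gm42031, whose fitted value is set by WT libraries at 0 and is no measure of size, and the 17 lower genes run down to Gm16867 at -4.42 in ROBO4_KO and -3.56 in VLDLR_KO.

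Between the knockouts, 10 of the 81 genes differed (VLDLR_KO against ROBO4_KO, 1868 of all tested genes called, 16%). These were Cadm1, Cd34, Gclm, Gm21596, Gm40498, Gm42102, Gm46911, Il1a, Oasl2 and Rsad2. The change was larger in VLDLR_KO for 56 of the 81, and the same count over all tested genes was not made. Of all tested genes, 16.8% were called in VLDLR_KO and 0.643% in ROBO4_KO. Whether the larger change in VLDLR_KO was particular to the 81 was not tested. Gm42102 was the extreme, with log2 fold changes against WT of 5.96 in VLDLR_KO and 4.24 in ROBO4_KO, and Il1a had the smaller change in VLDLR_KO, at -1.06, against -1.96 in ROBO4_KO. For the others a difference between the knockouts was not detected, which does not show that the changes were equal.

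Chromosome 9, which carries Robo4 (start at 37401897), held 24 of the 81 genes, 8 higher and 16 lower. That is 3.71% of its 647 tested genes, against 57 of 11021 (0.517%) on the remaining chromosomes and the unplaced sequences, and 29.6% of the called genes against 5.55% of the tested genes. Chromosome 1 came next with 8 genes (1.19% of 673), and chromosome 18 had none. Of the genes called in each knockout, 15 were on chromosome 9 (2.32%) and 31 elsewhere (0.281%). Counted separately, ROBO4_KO against WT had 27 calls on chromosome 9 (4.17%) and VLDLR_KO against WT had 132 (20.4%, against 16.8% of all tested genes). Vldlr is on chromosome 19, where 4 of 427 tested genes (0.937%) were among the 81. Over the leave-one-out fits the number on chromosome 9 ranged from 13 to 30, and 13 of the 36 genes that stayed called throughout were there.

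**Figure D3:**
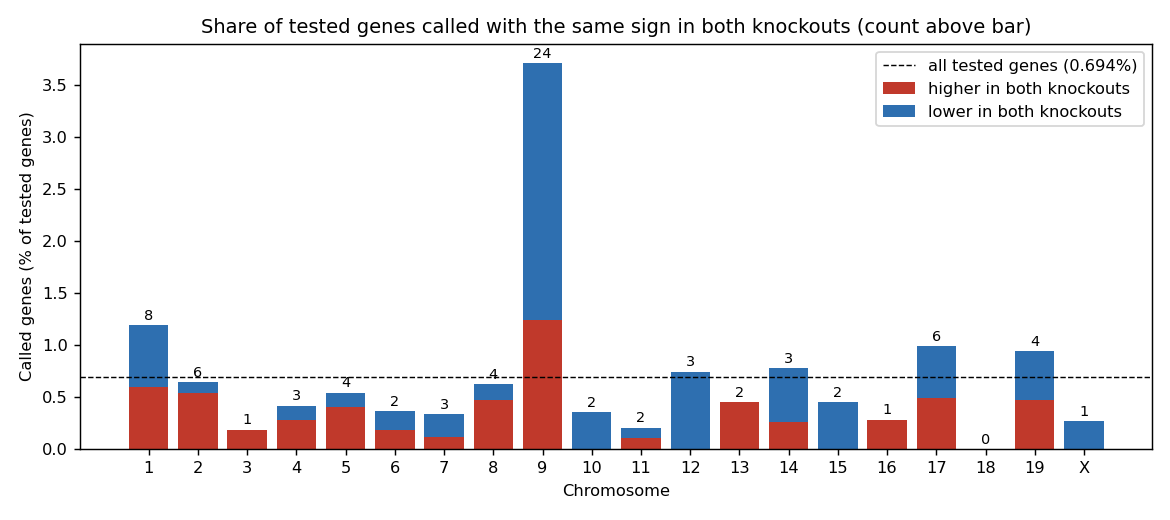
Share of the tested genes of each chromosome that were called with the same sign in both knockouts, split into genes higher (red) and lower (blue) in the knockouts, with the count above each bar and the share of all tested genes (0.694%) as a dashed line. Chromosome 9 reaches 3.71%, and no other chromosome exceeds 1.19%.

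Within chromosome 9 the genes started between 7571396 and 79747212, and none of the tested genes from 80 Mb on was called. The interval from 40 to 50 Mb held 12 of its 62 tested genes (19.4%), that from 60 to 70 Mb held 4 of 61 (6.56%) and that from 70 to 80 Mb held 5 of 42 (11.9%), while from 50 to 60 Mb 1 of 81 was called and from 10 to 30 Mb none. Linking called genes whose starts lay within 1 Mb of the next gave 5 runs of 3 or more genes with 17 genes in all, every one on chromosome 9, and 5 runs of 2. The runs were Scn3b, Ubash3b and Gm40514; a run of 4 genes that included Mcam, Cbl and Vps11; Cep164, Rnf214 and Pafah1b2; Snx1, Aph1b, Lactb and Tpm1; and Cgnl1, Rfx7 and 2310009A05Rik. Of these 5 runs 4 held genes of both directions, and only the run of Cep164, Rnf214 and Pafah1b2 was lower throughout, at -0.35, -0.57 and -0.37.

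**Figure D4:**
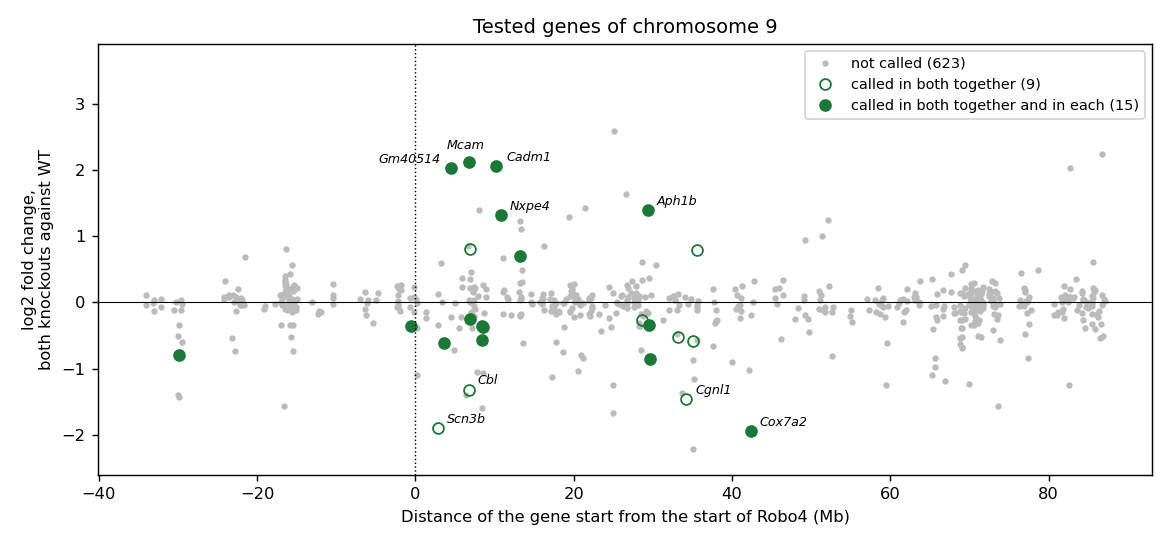
Combined log2 fold change against WT of the 647 tested genes of chromosome 9, by the distance of their start from the start of Robo4 (dotted line) in Mb; filled circles were called in both knockouts together and in each, open circles in both together only, and grey points were not called. The called genes lie from -29.83 Mb (Mmp27) to 42.35 Mb (Cox7a2), with values on both sides of 0, among many uncalled neighbours.

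Among the chromosome 9 genes that were higher, Mcam (CD146, an adhesion molecule also used as an endothelial marker) had 3.46, 4.04, 4.67, 3.54 and 4.4 CPM in ROBO4_KO and 5.38, 5.17, 4.02, 5.91 and 4.71 CPM in VLDLR_KO, against 0.559, 1.31, 1.3, 0.741 and 1.33 CPM in WT. Its groups did not overlap (log2 fold change 2.12, SE 0.23, adjusted p = 0.000169). In the deposited table Mcam overlaps Cbl, a ubiquitin ligase that dampens receptor tyrosine kinase signals, whose value had the opposite sign. Cbl had 15.2 to 114 CPM in the knockouts and 101 to 290 CPM in WT (log2 fold change -1.31, SE 0.26, adjusted p = 0.0287), with VLDLR_KO replicate 2 the lowest, and its call was lost without any 1 of 10 libraries. Aph1b, a subunit of the gamma-secretase complex, had 46.7, 37.7, 46.8, 40.8 and 36 CPM in ROBO4_KO and 36.1, 27.9, 38.1, 44.9 and 39.6 CPM in VLDLR_KO, against 16.1, 16.2, 13.4, 15.5 and 12.2 CPM in WT. Every knockout library was above every WT library (log2 fold change 1.40, SE 0.11, adjusted p = 6.4e-06). Nxpe4, named after its values were seen, starts within 1 Mb of Cadm1 and had 4.5 to 8.39 CPM in the knockouts and 1.96 to 2.81 CPM in WT (log2 fold change 1.32, SE 0.14, adjusted p = 8.56e-05).

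Among those that were lower, Cox7a2 (start at 79747212, the last of the called genes on the chromosome) encodes a subunit of cytochrome c oxidase. It had 11.6, 12.5, 12.6, 14.3 and 11.8 CPM in ROBO4_KO and 11.1, 24.1, 8.88, 12.1 and 13.7 CPM in VLDLR_KO, against 47.1, 42.3, 52.2, 55.2 and 70.5 CPM in WT. The log2 fold change was -1.94 (SE 0.16, adjusted p = 8.16e-06), and VLDLR_KO replicate 2 was the nearest to WT. Tpm1, a tropomyosin of actin filaments, averaged 73.3 ± 5.93 CPM in ROBO4_KO and 60.1 ± 12 CPM in VLDLR_KO, against 118 ± 13.7 CPM in WT (SD, n = 5 each), a log2 fold change of -0.85 (SE 0.12, adjusted p = 0.00265). Smaller decreases without overlap were those of Pafah1b2, a subunit of platelet-activating factor acetylhydrolase, at 71.7 to 87.8 CPM in the knockouts and 98.6 to 105 CPM in WT (log2 fold change -0.37, SE 0.06, adjusted p = 0.00596), and of Ei24, an endoplasmic reticulum protein named after its values were seen, at 67.7 to 80.3 CPM in the knockouts and 90.2 to 97.9 CPM in WT (-0.36, SE 0.06, adjusted p = 0.00515). Cgnl1, a junction protein, was lower by 1.46 on the log2 scale (SE 0.28, adjusted p = 0.0211), a call lost without WT replicate 1, 2 or 4. Mmp27, a matrix metalloproteinase gene near the start of the chromosome, was lower by 0.80 (SE 0.13, adjusted p = 0.00555), with 4.94 to 10.8 CPM in the knockouts and 8.59 to 16.1 CPM in WT.

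Off chromosome 9, Mid1, an X-linked ubiquitin ligase of microtubules, had 3.57, 3.78, 7.94, 15.5 and 3.79 CPM in ROBO4_KO and 5.92, 6.78, 11.4, 9.82 and 8.47 CPM in VLDLR_KO, against 21.1, 20.2, 29.5, 20 and 44.8 CPM in WT. The groups did not overlap (log2 fold change -1.99, SE 0.34, adjusted p = 0.0105). Within code forms Mid1 was not called, at -2.64 with the digit before B (adjusted p = 0.0903) and -1.12 with it after B (adjusted p = 0.303). Its interaction with code form was not called either (adjusted p = 0.503). Gdf15, a stress-induced cytokine, had 10.2 to 23.9 CPM in the knockouts and 25.8 to 57.5 CPM in WT (-1.14, SE 0.21, adjusted p = 0.0154), a call lost without WT replicate 1 or 2.

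Interferon-induced genes contributed 3 called genes of 27 tested in the list, all lower in the knockouts, while 0.369% of all tested genes were called lower. The list's median was -0.33 with 25 of 27 values negative, and the median over all tested genes was 0.01. Against WT, ROBO4_KO called 2 of the list lower and VLDLR_KO called 5 lower, and neither called any higher. Rsad2 (viperin, an antiviral enzyme) had 14.4, 14, 9.66, 10.3 and 10.1 CPM in ROBO4_KO and 7.83, 6.6, 7.03, 5.47 and 6.83 CPM in VLDLR_KO, against 13.7, 20.7, 36.4, 39.9 and 56.2 CPM in WT. WT replicate 1 lay within the range of ROBO4_KO, and WT libraries with the digit before B were the highest (log2 fold change -1.61, SE 0.25, adjusted p = 0.00433; -2.04 with the digit before B and -1.06 with it after B). VLDLR_KO was lower than ROBO4_KO by 0.76 on the log2 scale (adjusted p = 0.0258). Cmpk2, the nucleotide kinase gene that starts within 1 Mb of Rsad2 on chromosome 12, was at -0.83 (SE 0.16, adjusted p = 0.0261), and Oasl2, an oligoadenylate synthetase-like gene, at -0.73 (SE 0.14, adjusted p = 0.0242). Both calls were lost without VLDLR_KO replicate 1 and without WT replicate 2, 4 or 5. The list summed to 555.8 to 777.6 CPM in ROBO4_KO and 522.7 to 929.4 CPM in VLDLR_KO. In WT it summed to 654.2 to 674.8 CPM with the digit after B, within the range of each knockout. With the digit before B it summed to 899.6 to 1231 CPM in WT.

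The interferon-stimulated response element is the DNA motif through which the interferon-activated complex of STAT and IRF proteins acts, and cAMP response elements are found upstream of several immediate-early genes. Promoter stretches are shown for 4 called genes of these 2 groups of lower genes, picked because they hold a match, so they do not stand for their groups. They are RefSeq sequences of GRCm38.p6, 60 bases each, read on the strand of the gene, with the match in capitals (the interferon element in Rsad2, searched as TTTC, any 2 bases and TTTC, and TGACG or its complement CGTCA in the others).
Rsad2, chr12:26456538-26456597, minus strand: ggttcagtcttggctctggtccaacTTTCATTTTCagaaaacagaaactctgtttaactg
Fos, chr12:85473796-85473855, plus strand: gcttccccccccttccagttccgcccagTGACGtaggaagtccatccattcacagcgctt
Fosb, chr7:19310074-19310133, minus strand: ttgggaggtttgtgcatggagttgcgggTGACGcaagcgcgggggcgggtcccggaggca
Nr4a1, chr15:101266778-101266837, plus strand: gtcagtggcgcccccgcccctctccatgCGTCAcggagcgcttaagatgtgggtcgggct
The motifs and the genes shown were chosen after the values were seen. On both strands of the 250 bases before the start, the interferon element was in 3 of the 57 called genes with a promoter in the table (5.26%) and in 2.98% of all 32851 promoters, and TGACG was in 16 of 57 (28.1%) against 17.8% of all. The 32851 promoters were not limited to genes tested here, whereas the called genes all were, so the shares are of unlike sets. The other 3 motifs searched were TGACGTCA, which contains TGACG, in 2 of 57 (3.51%) against 1.55%; TGACTCA, in 3 of 57 (5.26%) against 4.46%; and the kappa-B motif, searched as GGGAC followed directly by TTTCC, in 0 of 57 against 0.14%. Of the called interferon-induced genes, Cmpk2 and Oasl2 held no match to the interferon element, while Lactb and Cd59a, which was higher, did. Of the called immediate-early genes, Dusp1 also held TGACG, while Jun and Zfp36 did not. A match describes letters only.

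Fosb, an immediate-early gene, had the largest fitted decrease of the 81 genes (-5.29, SE 0.94, adjusted p = 0.0132), and the decreases of this group rested on 2 WT libraries. Of the 23 tested genes of the list, 6 were called lower (Fos, Fosb, Jun, Nr4a1, Dusp1 and Zfp36), none was called higher, all 23 values were negative, and the median was -1.19. All 6 were called in VLDLR_KO against WT, where 9 genes of the list were called lower, whereas ROBO4_KO against WT called none of the list (adjusted p = 0.0764 for Fosb to 0.199 for Dusp1 among the 6). In VLDLR_KO against ROBO4_KO none of the 6 was called (adjusted p = 0.254 for Jun to 0.916 for Fosb). Fos, whose protein joins JUN proteins in AP-1, had 27.9, 36.1, 52.7, 54.4 and 56.1 CPM in ROBO4_KO and 18.9, 12.6, 41.9, 53.1 and 48.1 CPM in VLDLR_KO, against 855.6 and 944.8 CPM in WT replicates 1 and 2 and 42.4, 35.9 and 32.2 CPM in WT replicates 3 to 5. The first 2 WT libraries, those with the digit after B, were far above every other library, and the remaining 3 lay within the range of the knockouts. The combined log2 fold change of Fos was -2.64 (SE 0.49, adjusted p = 0.0177), with -0.62 (adjusted p = 0.762) within the digit before B and -4.14 within the digit after B, and the interaction of knockout and code form was called (3.52, adjusted p = 0.00015). The call was lost without WT replicate 1 or 2 (adjusted p up to 0.0689), and without both the log2 fold change was -0.62.

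The same split held for Fosb, another AP-1 subunit, and Nr4a1, an orphan nuclear receptor. Fosb had 0.109 to 1.64 CPM in the knockouts, against 93.6 and 133 CPM in WT replicates 1 and 2 and 0.426 to 0.847 CPM in WT replicates 3 to 5. Nr4a1 had 1.36 to 3.85 CPM in the knockouts, against 76.5 and 78.4 CPM in WT replicates 1 and 2 and 2.99 to 3.8 CPM in WT replicates 3 to 5. Ptgs2, the inducible cyclooxygenase, differed from these in that WT replicates 3 to 5 (3.09 to 4.63 CPM) were also above 9 of the 10 knockout libraries (0.278 to 1.22 CPM), with ROBO4_KO replicate 2 at 5.07 CPM. WT replicates 1 and 2 had 38.2 and 52.7 CPM. Summed over the list, immediate-early genes had 1482 to 2037 CPM in ROBO4_KO and 1265 to 1800 CPM in VLDLR_KO, against 5369 to 5958 CPM in WT with the digit after B and 1517 to 1560 CPM in WT with the digit before B. The interaction with code form was called for 7 of the 81 genes (46 of all tested genes, 0.394%), all of them lower genes, namely Fos, Fosb, Nr4a1, Ptgs2, Zfp36, Pim1 and Sik1, of which the last 3 were named after their values were seen. All 81 genes had the same sign within both code forms, with 6 called within the digit before B and 45 within the digit after B. The 81 were called from these same libraries, so this agreement is not separate evidence. The share of all tested genes with the same sign in both forms was not worked out.

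Of 18 tested inflammatory mediators, 3 were called lower, Il10, Il1a and Ptgs2, and none higher, with a list median of -1.16. Il10, an anti-inflammatory cytokine, had 0.111 to 0.99 CPM in the knockouts, against 10.2 and 10.6 CPM in WT replicates 1 and 2 and 0.312 to 0.741 CPM in WT replicates 3 to 5 (log2 fold change -3.12, SE 0.64, adjusted p = 0.0325). Il1a, an interleukin-1 cytokine, had 0.57 to 3.6 CPM in ROBO4_KO and 1.03 to 9.59 CPM in VLDLR_KO, against 16.9 and 18.2 CPM in WT replicates 1 and 2 and 1.97 to 3.07 CPM in the other WT libraries (-1.44, SE 0.29, adjusted p = 0.0292). Each call was lost without WT replicate 1 or 2 and without other single libraries, 9 in all for Il10, 7 for Il1a and 10 for Ptgs2. Against WT, ROBO4_KO called only Il1a of the list lower (adjusted p = 0.00224), while VLDLR_KO called 6 lower and 1 higher. The list summed to 234.7 to 609.4 CPM in ROBO4_KO and 308.8 to 688 CPM in VLDLR_KO, against 1468 to 1752 CPM in WT with the digit after B and 534.4 to 671.8 CPM in WT with the digit before B. What set these 2 WT libraries apart was not tested.

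**Figure D5:**
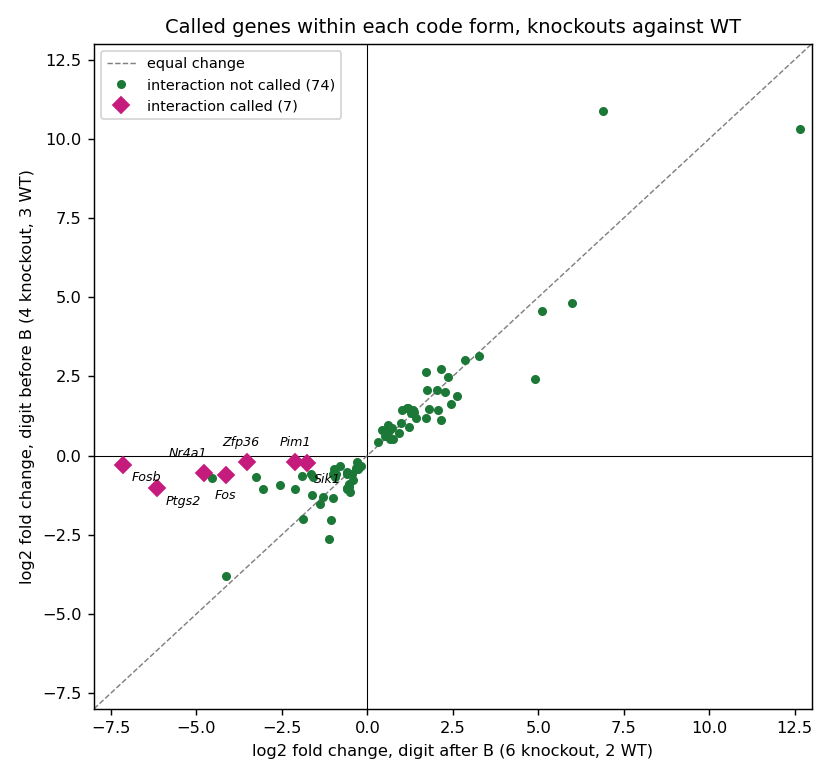
Log2 fold change of knockouts against WT for the 81 called genes, within libraries with the digit after B (horizontal axis; 6 knockout, 2 WT) and within those with the digit before B (vertical axis; 4 knockout, 3 WT), with the line of equal change dashed. Most genes higher in the knockouts lie near the line, while the 7 genes with a called interaction (diamonds) lie between -1.04 (Ptgs2) and -0.20 on the vertical axis and reach -7.15 on the horizontal axis.

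None of the other lists held a gene called in the combined comparison. They included macrophage identity (0 of 24 tested, median 0.02), the lysosome (0 of 29, median -0.01), cholesterol synthesis (0 of 27, median -0.33), lipoprotein receptors (0 of 14, median -0.16), Slit, Robo and netrin signalling (0 of 11, median -0.12) and extracellular matrix and fibroblast genes (0 of 21, median -0.96). The last list had all 21 values negative, and its sum ranged from 2006 to 3265 CPM in ROBO4_KO, 1470 to 3484 CPM in VLDLR_KO and 2833 to 3524 CPM in WT. The lists do not cover every gene of their kind. Hgsnat, named after its values were seen, encodes a lysosomal enzyme outside the lysosome list. It was called higher in the combined comparison (log2 fold change 0.62, SE 0.11, adjusted p = 0.01015). Over all genes 1259 (10.8%) had an unadjusted p under 0.05. Qk, which encodes the RNA-binding protein QKI, and Slc17a5, the lysosomal sialic acid exporter, both named in the study's title, were not called in the combined comparison (log2 fold changes -0.23 with SE 0.16 and 0.06 with SE 0.08).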

How the data were processed

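Total RNA of the 15 macrophage libraries went through SMARTER library preparation and paired-end sequencing (BGISEQ-500), per the labels. The submitters' processing notes name HISAT and Bowtie2, without versions, and GRCm38.p6; the quantifier is not given in the sources used here. The deposited table holds estimated counts per gene, per the file headers, of which 92.6% were whole numbers, without normalization. No value column belonged to an unlisted sample. Replicates differed by more than sampling noise (chi-square per degree of freedom 5.71 to 246).

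Counts were rounded and tested with edgeR 4.0.16 in R 4.3.3 (TMM, filterByExpr by genotype, 11668 of 16886 genes, quasi-likelihood, two-sided, Benjamini-Hochberg adjusted over all tested genes). The combined model had 1 knockout term and code form; each knockout and the difference between knockouts came from a model with 3 genotypes, and an interaction from knockout by code form. Levels are CPM on TMM-scaled totals. The procedure was tested on simulated data. Alternatives used DESeq2 1.42.0, other scaling, no filter, other covariates and left-out libraries. Floors cover counting error only.

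The set of genes described and the 33 gene lists were chosen with earlier results of these data known. Genes were named by rule: the targeted genes, Qk and Slc17a5; of genes called in each knockout with a mean of at least 1 CPM, the 12 with the largest change in each direction; up to 6 per chromosomal run; and up to 4 per list. All other genes the text gives values or names for, overlap partners among them, were chosen after their values were seen. Positions are those of the deposited table; 74 of the 81 genes matched RefSeq by gene ID, all on the same chromosome, but only 38 with both ends within 1 kb, 8 spanned at least 2 times the RefSeq length, and 11 of 57 had the other strand, so intervals and overlaps are approximate. Some values of single genes are not reported here.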

Additional observations from a re-analysis of the deposited data

Results flagged for a closer look

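In a few groups of 5 libraries 1 library stood far from the others, which chance alone gives in about 1 in 20 groups. These were VLDLR_KO replicate 2 for 2310009A05Rik (19 CPM), ROBO4_KO replicate 5 for Rfx7 (23.9 CPM), WT replicate 2 for Camk2b (3.31 CPM), ROBO4_KO replicate 2 for Ptgs2 (5.07 CPM) and for Vldlr (1.97 CPM), and VLDLR_KO replicate 4 for Il10 (0.502 CPM) and for Robo4 (0.0558 CPM, 1 count).

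The knockout effect differed between the code forms (digit before B minus digit after B, on the log2 scale) by 3.52 for Fos, 6.86 for Fosb, 4.22 for Nr4a1 and 5.12 for Ptgs2.

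VLDLR_KO minus ROBO4_KO, on the log2 scale, was called positive for Cd34 (1.34), Gm42102 (1.72), Il1a (0.89), Gm40498 (0.79) and Gclm (0.41). It was called negative for Rsad2 (-0.76), Qk (-0.58), Oasl2 (-0.5), Cadm1 (-0.35) and Slc17a5 (-0.23).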

How the results depend on the processing

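RLE scaling and no low-count filter left every count of called genes within 1.5 times. In the order higher and lower in the combined comparison, then higher and lower in each knockout, then on chromosome 9, the counts were 38, 43, 29, 17 and 24 as reported. They were 96, 101, 46, 56 and 36 with DESeq2, and 179, 328, 31, 19 and 64 with 1 coefficient per genotype. They were 25, 21, 18, 8 and 14 without the code form covariate, 5, 2, 5, 2 and 1 with the digit before B only, and 25, 94, 24, 85 and 20 with the digit after B only. Of the alternatives added after the data were seen, they were 22, 9, 21, 8 and 12 without the libraries lacking Y-linked counts and 17, 9, 15, 8 and 8 without both WT libraries with the digit after B. Leaving out 1 library at a time, they ranged from 23 to 50, 14 to 59, 19 to 42, 9 to 35 and 13 to 30. The lowest combined counts came without WT replicate 1 (40 in all) or WT replicate 2 (37), and the highest came without VLDLR_KO replicate 2 (109). Those fits had fewer libraries, and the cause of the other shifts was not tested.

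Over 12 pairs of libraries with the same form and digit, the correlation of deviations ranged from -0.561 to 0.443, and 4 exceeded 0.1. With so few libraries per genotype and code form, these correlations cannot decide whether the numbers in the codes pair the libraries. With the replicate block (form and digit) the counts were 23, 14, 21, 10 and 16, all 37 combined calls being among the 81.

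The values of 2 uncalled genes turned sign, Slc17a5 to -0.004 without the code form covariate and Vldlr to 0.069 without the libraries lacking Y-linked counts. Vldlr had few counts, and a difference in it was not detected (log2 fold change -1.07, SE 0.71, in VLDLR_KO against WT), which does not show that there was none. Robo4 had nearly no counts, too few to compare at this depth.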
